A study of Mus musculus with 6 samples.

Results

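Epithelial cells are held together by several kinds of junction, and 43 genes encoding these junctions, the keratin filaments attached to them and proteins linked to bile ducts or to dedifferentiation were examined in primary mouse hepatocytes. They were chosen by name, with earlier results of these data known. The group holds claudins, other tight junction proteins, connexins, cadherins and catenins, desmosomal proteins, keratins, duct and progenitor genes, and vimentin with annexins. All 43 had a row in the deposited table of 23282 genes. Hepatocytes isolated by collagenase perfusion from C57BL6/N livers had attached for 3 h before the medium was changed, and were then left untreated (control, n = 3) or treated with recombinant IL-1β protein for 24 h (n = 3). Both groups shared the same strain, isolation and culture, and the labels name no genetic change in either. The labels give no dose, age or sex, and do not say whether the samples came from separate animals, so that p-values measure only the spread between these samples, which may be technical. Log2 fold changes are IL-1β over control, with their standard error as SE. The description of the series speaks of 2 samples per group while the table holds 3, and all 6 samples were used.

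Tight junctions seal the space between neighbouring cells and border the bile canaliculus, the channel into which hepatocytes secrete bile. Adherens junctions and desmosomes couple the actin and keratin filaments of adjacent cells through cadherins, and gap junctions connect their cytoplasm through connexin channels. Hepatocytes carry a simple keratin cytoskeleton, whereas bile duct cells add further keratins and surface proteins that are used as duct markers.

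RNA was measured by QuantSeq, which reads the 3′ end of polyadenylated transcripts, and raw read counts per gene were compared with the quasi-likelihood test of edgeR. Total counts ranged from 9538741 to 11105408 per library. Levels are given as CPM, the count scaled to a common library size after TMM normalization, and 3 counts in a library corresponded to between 0.269 and 0.321 CPM, a limit that covers counting error only. A gene was called when its p-value, adjusted by the Benjamini-Hochberg method over the 11657 genes with enough counts, was below 0.05. The most counted hepatocyte markers were Alb (16200 ± 516 CPM, SD, n = 3 in the controls), Fgb, Gc and Trf, whereas Cps1 and Tat averaged 2.65 and 3.22 CPM in the controls. Of 15 such markers, 13 were lower after IL-1β and 0 were higher, with a median log2 fold change of -0.36. Among all tested genes 6.44% were lower and 6.97% higher, but the markers were chosen with earlier results of these data known.

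After IL-1β, at least 1 gene of every structure examined was lower, and within a structure the changes ranged widely. The largest decreases were in the claudin Cldn4 (4.88-fold), the cadherin Cdh17 (3.47-fold) and the connexin Gjb1 (3.25-fold), and the keratins Krt8 and Krt18, the secreted protein Spp1 and vimentin fell by more than 2-fold. Increases were smaller and occurred in Cldn14, Tjp3 and Dsc2. Of the 43 genes, 35 had enough counts to be tested, and 16 of these were called lower and 3 higher. Over all genes tested, 6.44% were called lower and 6.97% higher. At least 2-fold decreases were called in 7 of the 35 genes, against 1.51% of all genes tested, and at least 2-fold increases in 0 of the 35, against 1.88%. In 20 of the 35 genes every IL-1β sample lay below every control sample, and in 4 every IL-1β sample lay above, whereas 14.2% and 14% of all tested genes showed these patterns. The median log2 fold change of the 35 genes was -0.19, and that of all tested genes was -0.00184. Since the genes were chosen with earlier results of these data known, these comparisons with all genes do not test the group. The median coefficient of variation within a group was 6.58% in the controls and 6.24% after IL-1β.

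**Figure D1:**
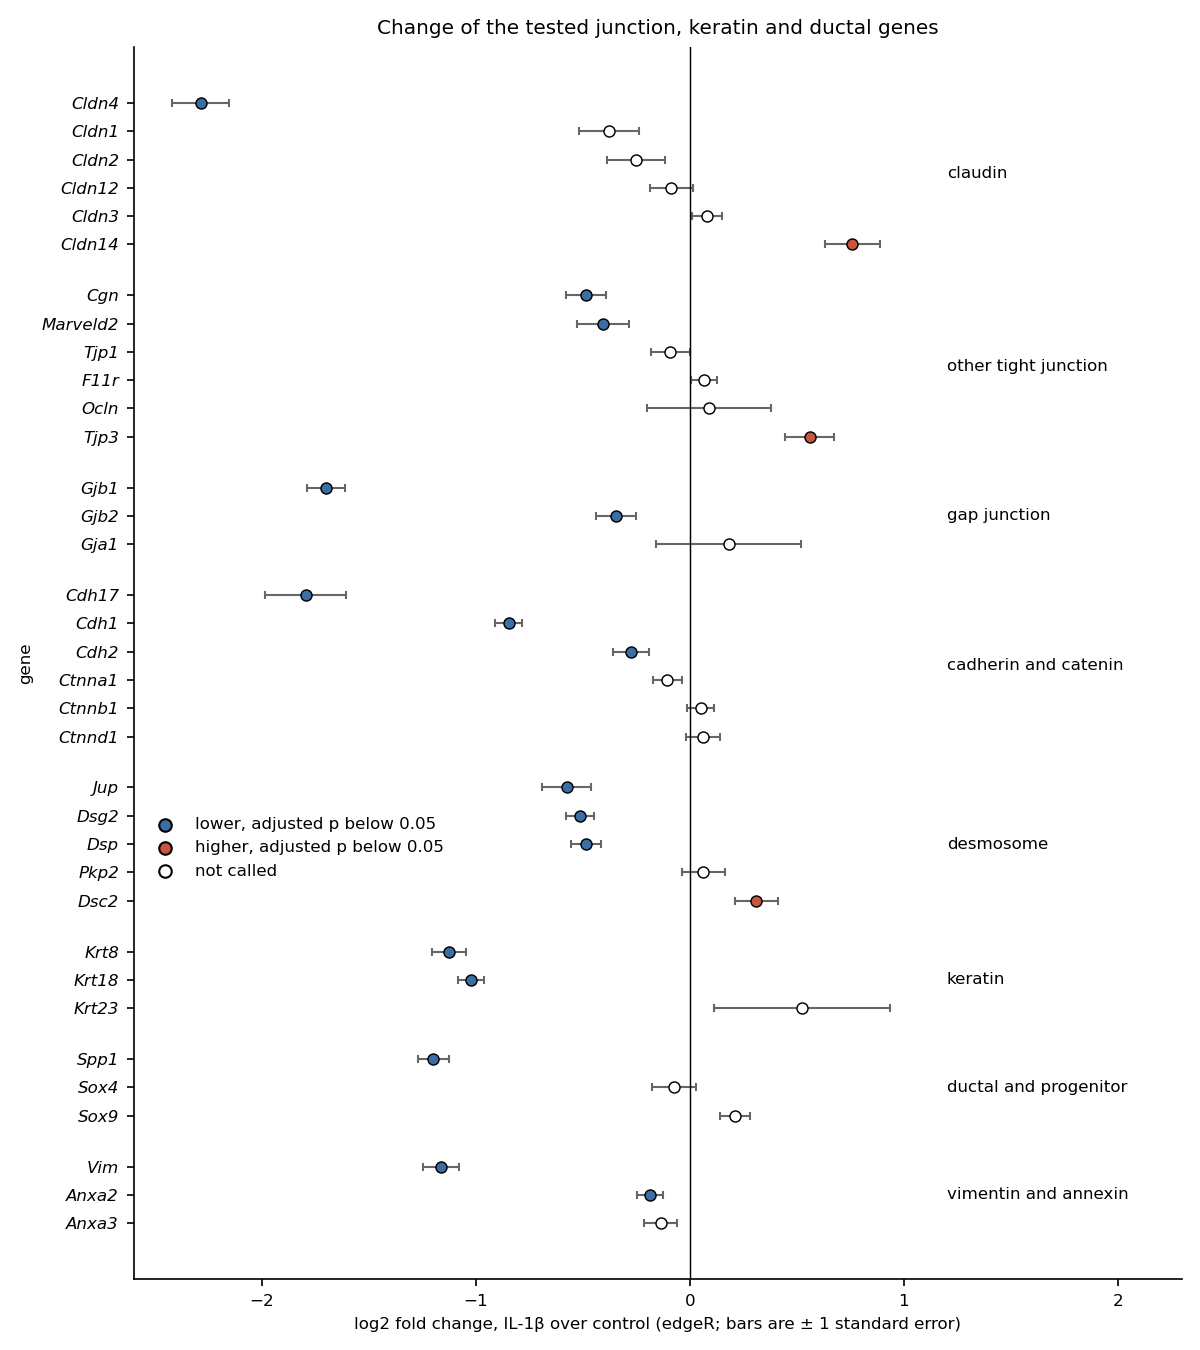
Log2 fold change of IL-1β over control for the 35 tested genes, ordered by structure, with the edgeR estimate as a point and ± 1 SE as a bar. Blue points are the 16 genes called lower, red points the 3 called higher and white points the 16 not called, and Cldn4 at -2.29 and Cldn14 at 0.76 are the lowest and highest values.

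Claudins are the membrane proteins that form the strands of tight junctions and set which ions pass between cells. Among the 7 claudins, Cldn4 fell and Cldn14 rose, 4 others were tested without a call, and Cldn7 had at most 12 counts in any library and was not tested. Cldn4 measured 49.8, 40.7 and 49.8 CPM in the control samples and 9.41, 10.1 and 9.20 CPM after IL-1β. Every IL-1β sample was far below the lowest control. The log2 fold change was -2.29 (SE 0.132, adjusted p = 1.1e-12). Cldn14, a claudin that forms cation-restricting strands in the inner ear and kidney, changed the opposite way. It measured 17.2, 20.6 and 21.4 CPM in the control samples and 35.4, 35.1 and 29.7 CPM after IL-1β, so that the groups did not overlap. Its log2 fold change was 0.76 (SE 0.127, adjusted p = 1.0e-04). Cldn3, which seals bile duct and hepatocyte junctions, was at 257 ± 17.02 CPM (SD, n = 3) and 272 ± 12.2 CPM (SD, n = 3), with a log2 fold change of 0.08 (SE 0.0688, adjusted p = 0.55). Cldn1, a barrier-forming claudin, had a log2 fold change of -0.38 at an adjusted p of 0.085, which became 0.039 without control replicate 2 and 0.039 with library totals as the only scaling, but 0.13 with DESeq2 and up to 0.37 with another sample left out. The pore-forming Cldn2 and the widely expressed Cldn12 gave log2 values of -0.25 (adjusted p = 0.28) and -0.09 (adjusted p = 0.68).

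Cldn4 and Cldn3 are neighbours on chromosome 5. On the mm10 (GRCm38) build the table places Cldn4 at 134945124 to 134946934 on the minus strand and Cldn3 at 134986214 to 134987476 on the plus strand, 39279 bases apart. The log2 ratio of Cldn4 to Cldn3 counts within a library, from which library scaling cancels, was -2.47 ± 0.0702 (SD, n = 3) in the controls and -4.83 ± 0.132 (SD, n = 3) after IL-1β. The ratio of these neighbours therefore moved by -2.37, with no overlap between the groups (two-sided exact permutation test, p = 0.1, a value below which 3 against 3 samples cannot go). This is 1 of 7 ratios computed between related genes, which were chosen with the changes known, so that none is an independent test. The adjusted value was 0.117 wherever p was 0.1. The 250 bases before the annotated start of each gene are shown because these neighbours changed so unequally, with matches to the AP-1 motif in capitals. They are from RefSeq (GRCm38.p6), at chr5:134946935-134947184 on the minus strand for Cldn4 and chr5:134985964-134986213 on the plus strand for Cldn3.
Cldn4: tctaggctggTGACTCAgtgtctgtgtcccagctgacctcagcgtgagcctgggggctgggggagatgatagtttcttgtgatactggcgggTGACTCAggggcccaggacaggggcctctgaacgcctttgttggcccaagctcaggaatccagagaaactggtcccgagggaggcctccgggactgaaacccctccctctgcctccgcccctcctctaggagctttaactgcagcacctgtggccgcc
Cldn3: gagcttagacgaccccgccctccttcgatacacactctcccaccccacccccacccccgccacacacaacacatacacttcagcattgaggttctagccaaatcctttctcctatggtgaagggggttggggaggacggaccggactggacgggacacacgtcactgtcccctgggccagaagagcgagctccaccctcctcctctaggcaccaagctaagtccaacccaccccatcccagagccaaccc
The letters TGANTCA, the AP-1 motif, were searched on both strands. Cldn4 held 2 matches, of which the first letters lie 240 and 158 bases before the start, and Cldn3 held 0. Over 32536 windows of the same length, 6.73% held at least 1 match and 0.338% held 2 or more. The 31 members with a sequence had 45 windows, since some have several annotated starts, and 4 of the 45 (8.89%) held a match. These were windows of Anxa2, Cldn4, F11r and Gja1, 2 of which are among the 12 genes called lower that have a sequence. The letters CAAAGTCCA, an HNF4 motif, were found in 0 of the 45 windows, against 0.387% of all windows. At so low a share, 45 windows are too few for the absence of a match to say anything about these genes. A match describes these letters in this window only. A motif of the transcription factor NF-κB was also searched, and its matches are not reported here.

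Of the other tight junction proteins, Cgn and Marveld2 fell, Tjp3 rose, and 3 were tested without a call. Cgn encodes cingulin, which links the junction to actomyosin, and measured 92.5, 121 and 120 CPM in the control samples and 75.4, 85.1 and 77.9 CPM after IL-1β. All IL-1β samples lay below all controls, with a log2 fold change of -0.49 (SE 0.0947, adjusted p = 6.2e-04). Marveld2 encodes tricellulin, which seals the corners where cells meet, and its values of 32.2, 31.7 and 31.03 CPM compared with 24.8, 26.4 and 20.5 CPM after IL-1β. On the log2 scale it changed by -0.41 (adjusted p = 0.026), and the call was lost without control replicate 2 (0.071), IL-1β replicate 1 (0.062) or IL-1β replicate 3 (0.18). Tjp3, a cytoplasmic scaffold of the zonula occludens family, went the other way, from 24.3, 26.6 and 26.3 CPM to 34.9, 37.6 and 41.4 CPM. Its log2 fold change was 0.56 (SE 0.114, adjusted p = 9.6e-04). Exons of Tjp3 overlap those of Apba3 on the opposite strand, and Apba3 itself was not called (0.29 on the log2 scale, adjusted p = 0.10). Whether the authors' counting used strand is not given in the sources used here, so reads of the overlap cannot be assigned with certainty.

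Tjp1, Ocln and F11r, core components of the junction, were tested without a call. Tjp1, the scaffold most often used as a tight junction marker, measured 54.1, 50.6 and 54.0 CPM in the controls and 50.1, 50.0 and 48.7 CPM after IL-1β (log2 fold change -0.09, SE 0.0918, adjusted p = 0.62). Ocln, which encodes occludin, was low in counts, with 7.70, 3.85 and 5.24 CPM against 5.02, 8.07 and 4.74 CPM. The groups overlapped, and its change of 0.09 on the log2 scale had an SE of 0.29. F11r, the junctional adhesion molecule that recruits polarity proteins, was at 758 ± 39.8 and 794 ± 20.1 CPM (SD, n = 3 each), with a log2 fold change of 0.07 (adjusted p = 0.58). Marveld3, with 1 to 8 counts per library, was not tested.

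Of the 3 connexins, Gjb1 and Gjb2 fell, and the larger decrease was that of Gjb1, the main hepatocyte connexin. Gjb1 measured 226, 181 and 181 CPM in the control samples and 59.1, 62.3 and 59.6 CPM after IL-1β. The IL-1β samples lay close together and far below the lowest control, with a log2 fold change of -1.70 (SE 0.0878, adjusted p = 1.4e-13). Gjb2, which hepatocytes co-express with Gjb1, fell less, from 61.2, 54.9 and 63.0 CPM to 48.5, 44.0 and 48.3 CPM. Its log2 fold change was -0.35 (adjusted p = 0.014), and the call was lost without control replicate 3 (0.068) or IL-1β replicate 2 (0.099). The log2 ratio of Gjb1 to Gjb2 within a library went from 1.71 ± 0.181 to 0.36 ± 0.121 (SD, n = 3 each), again with no overlap (two-sided exact permutation test, p = 0.1). Gja1, the connexin of stellate cells, endothelium and many other cells, was counted at 3.01 ± 0.691 and 3.41 ± 0.214 CPM (SD, n = 3 each), with a log2 fold change of 0.18 and an SE of 0.338. Gjb1 lies on chromosome X at 101376376 to 101385629 and Gjb2 on chromosome 14 at 57098602 to 57104702.

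The cadherin genes Cdh1, Cdh17 and Cdh2 fell while the catenin genes Ctnnb1, Ctnna1 and Ctnnd1 were tested without a call. The desmosomal cadherins Dsg2 and Dsc2, which changed in opposite directions, and the catenin relative Jup, which fell, are given with the desmosomes below. Cdh1 encodes E-cadherin, the adhesion receptor of the epithelial adherens junction, and lies on chromosome 8 at 106603368 to 106670246. It measured 503, 534 and 502 CPM in the control samples and 297, 276 and 283 CPM after IL-1β. The spread within each group was small beside the gap between them, and the log2 fold change was -0.85 (SE 0.0633, adjusted p = 1.8e-10). Cdh17, the liver-intestine cadherin, fell further, from 18.7, 17.8 and 21.6 CPM to 6.84, 4.80 and 5.11 CPM. Its log2 fold change was -1.80 (SE 0.187, adjusted p = 7.8e-08). Cdh2, the N-cadherin gene that hepatocytes express beside Cdh1, fell by 0.27 on the log2 scale, from 117, 105 and 102 CPM to 92.2, 82.4 and 94.1 CPM. Its adjusted p of 0.026 rose to 0.093 when control replicate 1 was left out, 0.069 for IL-1β replicate 1 and 0.18 for IL-1β replicate 2. The log2 ratio of Cdh1 to Cdh2 moved by -0.57 with no overlap between the groups (two-sided exact permutation test, p = 0.1).

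Catenins tie cadherins to actin. Ctnnb1, which encodes β-catenin, measured 465, 473 and 516 CPM in the controls and 499, 518 and 490 CPM after IL-1β. The groups overlapped, with a log2 fold change of 0.05 (SE 0.0632, adjusted p = 0.71) that became -0.0035 with library totals as the only scaling. Within the last 500 nt of its transcript, 94.4% of the 75-nt windows, searched on both strands, match transcripts of Ulk4. Ulk4 overlaps Ctnnb1 on the opposite strand and averaged 0.0298 CPM in control libraries. The overlap would bear on the counts of Ctnnb1 only if counting ignored strand, which is not given in the sources used here. The values of Ctnna1 (α-catenin) and Ctnnd1, which binds the juxtamembrane part of cadherins, were -0.11 and 0.06 on the log2 scale, at adjusted p of 0.39 and 0.72. The log2 ratio of Cdh1 to Ctnnb1 went from 0.083 ± 0.111 to -0.81 ± 0.0811 (SD, n = 3 each, two-sided exact permutation test, p = 0.1).

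Desmosomes anchor keratin filaments, and 3 of their 5 genes fell, 1 rose and 1 was not called. Dsp encodes desmoplakin, the linker to keratin, and measured 185, 190 and 184 CPM in the controls and 127, 134 and 137 CPM after IL-1β (log2 fold change -0.49, adjusted p = 1.2e-05). Dsg2, a desmosomal cadherin, went from 305, 315 and 300 CPM to 221, 219 and 205 CPM (log2 fold change -0.51, adjusted p = 2.2e-06). In neither gene did the groups overlap. Jup encodes plakoglobin, a β-catenin relative found in both desmosomes and adherens junctions, and went from 65.1, 58.8 and 66.5 CPM to 33.5, 44.7 and 49.3 CPM. IL-1β replicate 1 was the lowest of these, and the log2 fold change of -0.58 (adjusted p = 7.3e-04) was -0.43 without it, with the call kept. Relative to Ctnnb1 in the same library, Jup moved by -0.65 on the log2 scale (two-sided exact permutation test, p = 0.1). Dsc2, the partner cadherin of Dsg2, rose from 40.4, 42.3 and 36.4 CPM to 46.2, 51.2 and 50.3 CPM. That call (log2 fold change 0.31, adjusted p = 0.041) was lost with library totals (0.098) or upper-quartile scaling (0.068), and with control replicate 3 (0.18), IL-1β replicate 2 (0.15) or IL-1β replicate 3 (0.13) left out. The log2 ratio of Dsg2 to Dsc2 moved by -0.82, with no overlap between the groups (two-sided exact permutation test, p = 0.1). Pkp2, the armadillo protein of the desmosomal plaque, was at 37.0 ± 0.640 and 38.6 ± 1.63 CPM (SD, n = 3 each), with an adjusted p of 0.79.

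Krt8 and Krt18 form the obligate filament pair of hepatocytes, and both fell about 2-fold. Krt8 measured 1695, 1315 and 1392 CPM in the control samples and 709, 615 and 693 CPM after IL-1β, which is -1.13 on the log2 scale (SE 0.0783, adjusted p = 4.5e-11). Krt18 measured 1893, 1802 and 1770 CPM in the control samples and 884, 850 and 953 CPM after IL-1β, which is -1.02 on the log2 scale (SE 0.0608, adjusted p = 1.9e-12). For each keratin the highest IL-1β sample was far below the lowest control. The log2 ratio of Krt18 to Krt8 was 0.32 ± 0.15 (SD, n = 3) in the controls and 0.41 ± 0.0842 (SD, n = 3) after IL-1β, and these ratios overlapped (two-sided exact permutation test, p = 0.5). In the last 500 nt of either transcript, 0 of the 75-nt windows occurred in annotated transcripts of another gene.

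The genes are neighbours on chromosome 15, with Krt8 at 101996711 to 102004342 on the minus strand and Krt18 at 102028216 to 102032026 on the plus strand, 23873 bases apart. The 250 bases before their starts, at chr15:102004343-102004592 and chr15:102027966-102028215 in RefSeq (GRCm38.p6), are shown because these neighbours both fell, on the minus strand for Krt8 and the plus strand for Krt18. Capitals would mark a match to the AP-1 or HNF4 motif above.
Krt8: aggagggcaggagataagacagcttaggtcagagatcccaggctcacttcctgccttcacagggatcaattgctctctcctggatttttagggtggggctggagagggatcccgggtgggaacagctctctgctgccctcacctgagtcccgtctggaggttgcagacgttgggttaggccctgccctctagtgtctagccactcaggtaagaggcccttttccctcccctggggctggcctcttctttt
Krt18: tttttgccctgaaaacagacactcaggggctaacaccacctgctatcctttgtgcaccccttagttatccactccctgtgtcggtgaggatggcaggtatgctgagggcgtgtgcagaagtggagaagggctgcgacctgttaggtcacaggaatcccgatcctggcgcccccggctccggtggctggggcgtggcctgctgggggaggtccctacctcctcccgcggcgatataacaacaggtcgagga
Neither window held a match to either motif. The GC content was 58.0% before Krt8 and 60.4% before Krt18, compared with 62.0% before Cldn4 and 60.8% before Cldn3.

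The remaining keratins were scarce. Krt23, a keratin linked to liver injury, was counted at 1.64 ± 0.298 and 2.36 ± 0.490 CPM (SD, n = 3 each), with a log2 fold change of 0.52 and an SE of 0.413 (adjusted p = 0.51). The duct keratin Krt7 had counts of 0, 2 and 0 in the controls and 0, 2 and 0 after IL-1β. Krt19, the other duct keratin, had 6, 3 and 2 counts in the controls and 0 in each IL-1β library, which allows up to 3 counts. Krt20 had 1 to 4 counts in 4 libraries and 0 in the remainder. All IL-1β libraries of Krt19 thus lay below all controls, and in the edgeR fit without a filter its unadjusted p was 0.020 and its adjusted p 0.14. In that fit Krt7 and Krt20 had adjusted p of 0.998 and 0.49.

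**Figure D2:**
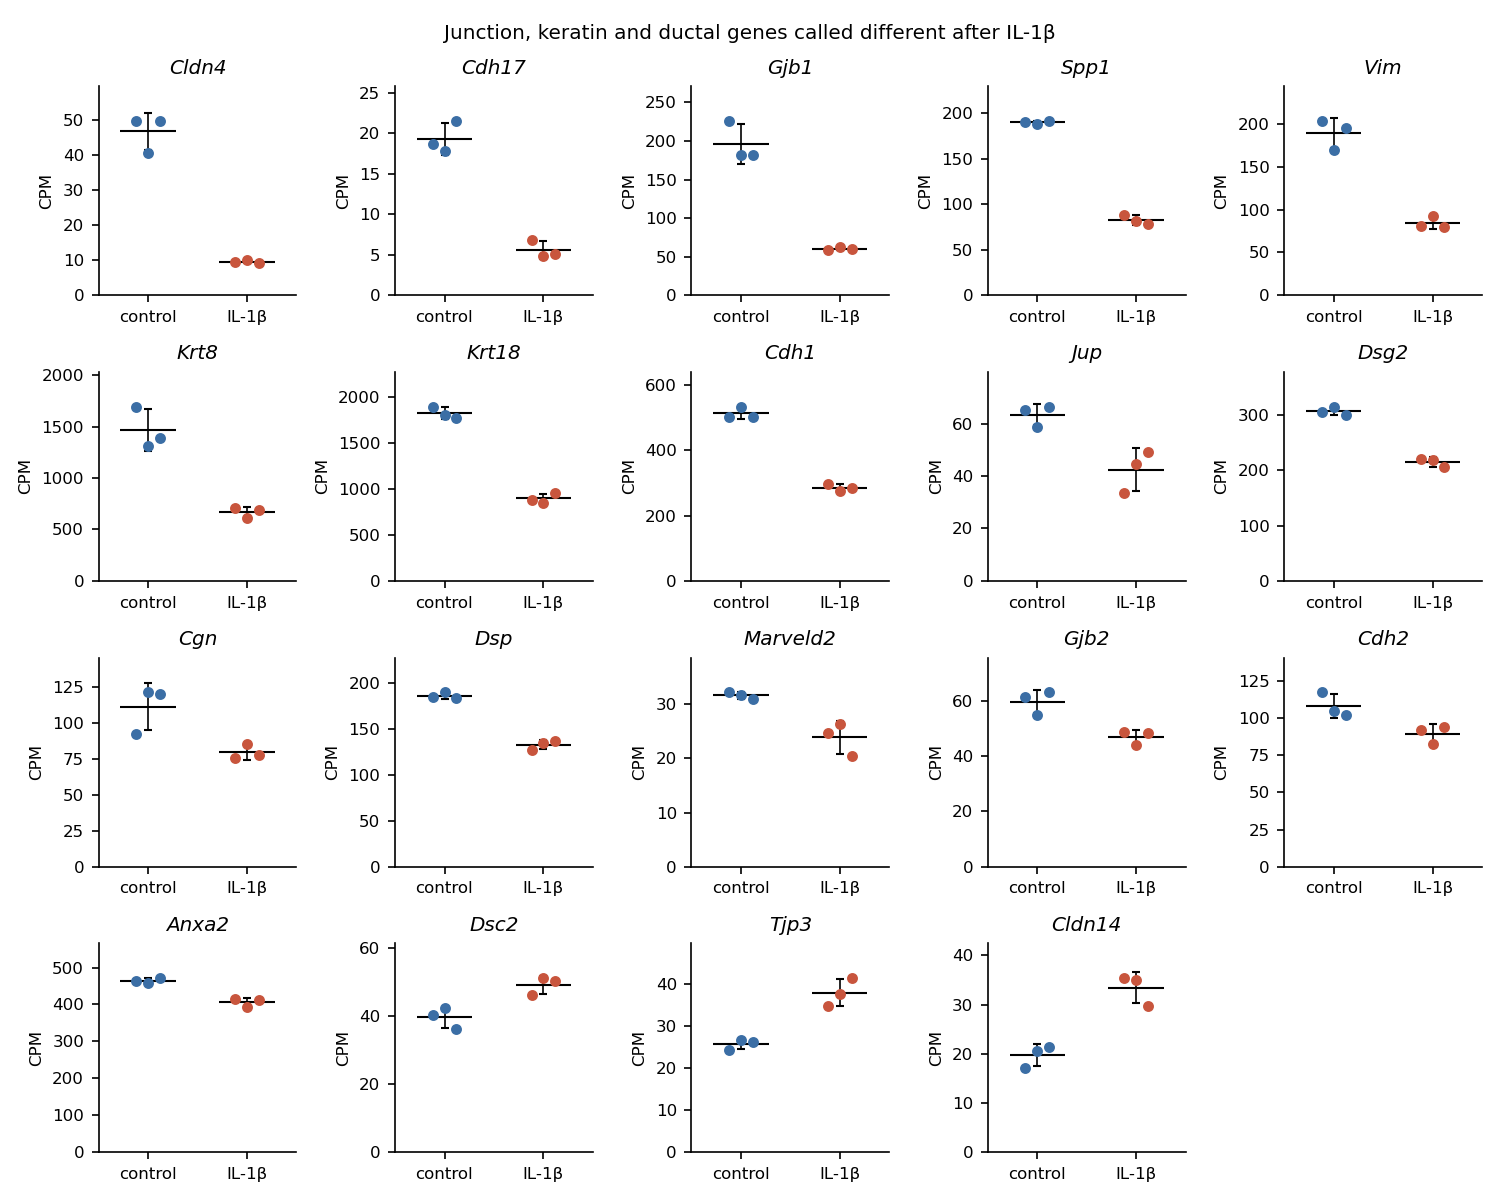
Level of the 19 called genes in every sample, as CPM on linear axes that start at 0, with control samples in blue, IL-1β samples in red, the mean as a line and ± 1 SD as a bar (n = 3 per group). The panels run from the largest decrease, Cldn4, to the largest increase, Cldn14, and in no panel do the groups overlap.

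Of 5 genes linked to bile ducts and progenitor cells, 3 were tested, of which Spp1 fell and 0 rose. Spp1 encodes osteopontin, a secreted phosphoprotein made by duct cells and by injured hepatocytes, and measured 190, 188 and 192 CPM in the controls and 88.3, 81.8 and 78.1 CPM after IL-1β. Its control samples were nearly equal, and its log2 fold change was -1.20 (SE 0.0741, adjusted p = 4.4e-12). Sox9, the transcription factor of the duct lineage, was at 136, 128 and 138 CPM in the controls and 148, 158 and 158 CPM after IL-1β. All IL-1β samples of Sox9 lay above all controls, with a log2 fold change of 0.21 and an adjusted p of 0.052, and it was not called. The adjusted p was 0.041 with DESeq2, 0.048 with limma, 0.045 with a minimum of 10 counts per sample and 0.047 without control replicate 1. It was 0.19 with library totals, 0.10 with upper-quartile scaling, 0.063 without a filter and up to 0.19 with another sample left out. Sox4, a related factor of developing ducts, was at -0.07 on the log2 scale (adjusted p = 0.75). Of the 75-nt windows in its last 500 nt, searched on both strands, 67.8% match Gm26735, which overlaps Sox4 on the opposite strand. The surface marker Epcam had counts of 0, 0 and 0 in the controls and 1, 0 and 1 after IL-1β, and Cd24a had at most 4 counts in any library.

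The duct label was checked against 10 bile duct markers. Of these, Krt7, Epcam and Cftr had at most 3 counts in every library, and Krt19, Tspan8 and Muc1 had at most 6. Bicc1 and Pkhd1 had 16 to 75 counts per library and were not called, with log2 fold changes of -0.95 and -1.15. The summed level of the list was 323 to 339 CPM in the controls and 241 to 244 CPM after IL-1β, nearly all of it Spp1 and Sox9, which hepatocytes can also express. Of the 4 markers tested, Spp1 was called lower and 0 were called higher. The surface marker Epcam and the duct keratins Krt7 and Krt19 were at or near 0 in the cultures in which Spp1 and Sox9 were measured. In bulk samples, fewer cells of a type and less RNA per cell cannot be told apart.

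**Figure D3:**
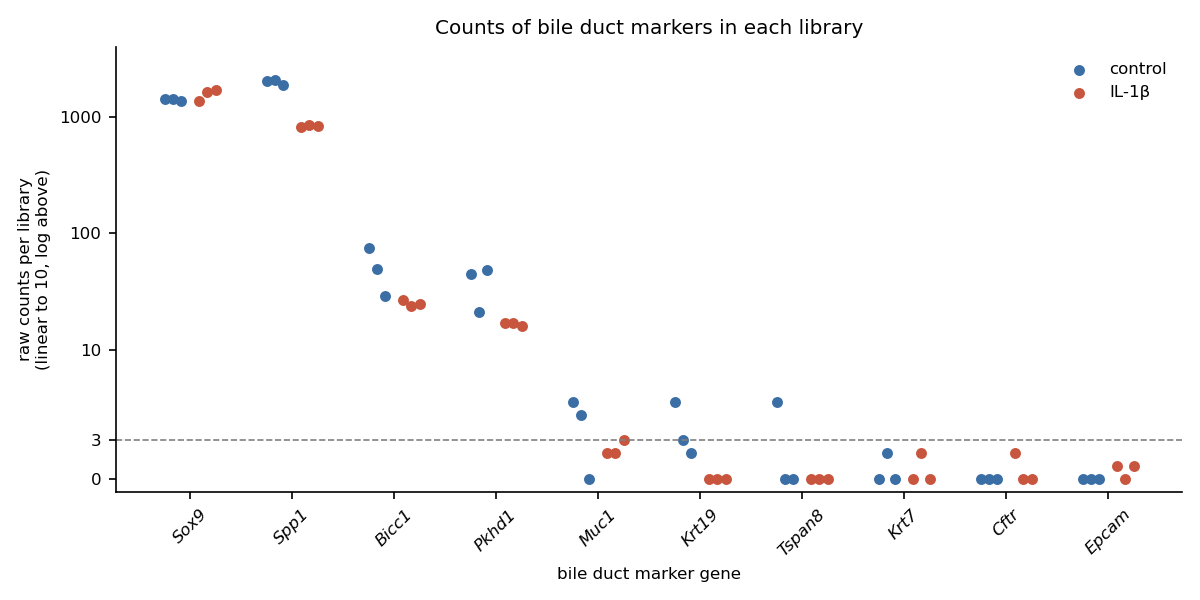
Raw counts of 10 bile duct markers in each of the 6 libraries, on an axis that is linear up to 10 and logarithmic above, with control libraries in blue and IL-1β libraries in red. The dashed line marks 3 counts, and Krt7, Epcam and Cftr stay below it in every library while Sox9 and Spp1 lie far above it.

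Vimentin and the annexins are used as signs of dedifferentiation or of mesenchymal cells. Vim, the intermediate filament of mesenchymal cells, fell from 204, 170 and 195 CPM to 81.6, 92.5 and 80.0 CPM (log2 fold change -1.16, SE 0.0829, adjusted p = 7.2e-11). The highest IL-1β sample of Vim was well below the lowest control. Anxa2, a membrane-binding annexin, went from 462, 459 and 471 CPM to 415, 394 and 413 CPM. On the log2 scale it changed by -0.19 (adjusted p = 0.040), and the call held without control replicate 1 but not without control replicate 2 (0.093), control replicate 3 (0.11), IL-1β replicate 1 (0.098), IL-1β replicate 2 (0.18) or IL-1β replicate 3 (0.080). Anxa3, a related annexin, was at -0.14 on the log2 scale (adjusted p = 0.30), and Anxa1 had at most 4 counts in any library.

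Since vimentin marks nonparenchymal cells, markers of those cells are given beside it. Of 5 tested stellate cell and fibroblast markers of 13, 0 were called, and the summed level of the list was 49.7 to 53.5 CPM in the controls and 51.0 to 53.5 CPM after IL-1β, led by Sparc (log2 fold change 0.02) and Dcn (0.14). Of 10 tested endothelial markers of 12, Clec4g, Kdr and Ptprb were lower, with log2 fold changes of -2.87, -1.49 and -0.95. Lyve1 was higher (0.45), and the median over the 10 was -0.41. The summed level of the endothelial list was 91.2 to 103 CPM in the controls and 86.1 to 91.7 CPM after IL-1β. Eng, the most counted endothelial marker, had a log2 fold change of 0.02, and Cdh5 and Pecam1 had 0.32 and -0.31 without a call. Of 12 tested macrophage markers of 15, 0 were called, with a summed level of 252 to 282 CPM in the controls and 257 to 291 CPM after IL-1β, led by Cd68 (log2 fold change -0.06), Ctss (-0.02), Cd5l (-0.21) and Cd74 (0.56, adjusted p = 0.066). Cd68, at 192 ± 17.4 CPM (SD, n = 3) in the controls, made up most of the macrophage sum. The median log2 fold change over the 12 macrophage markers was 0.26, and 8 of the 12 lay above 0. Clec4f, Vsig4 and Timd4 had too few counts to be tested. In none of these 3 lists was a marker at 0 in every library. Of 9 mesothelial markers, 6 had at most 3 counts in every library, and the 2 tested were Krt8 and Krt18 themselves. The part of endothelial cells in the fall of Vim was not tested.

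**Figure D4:**
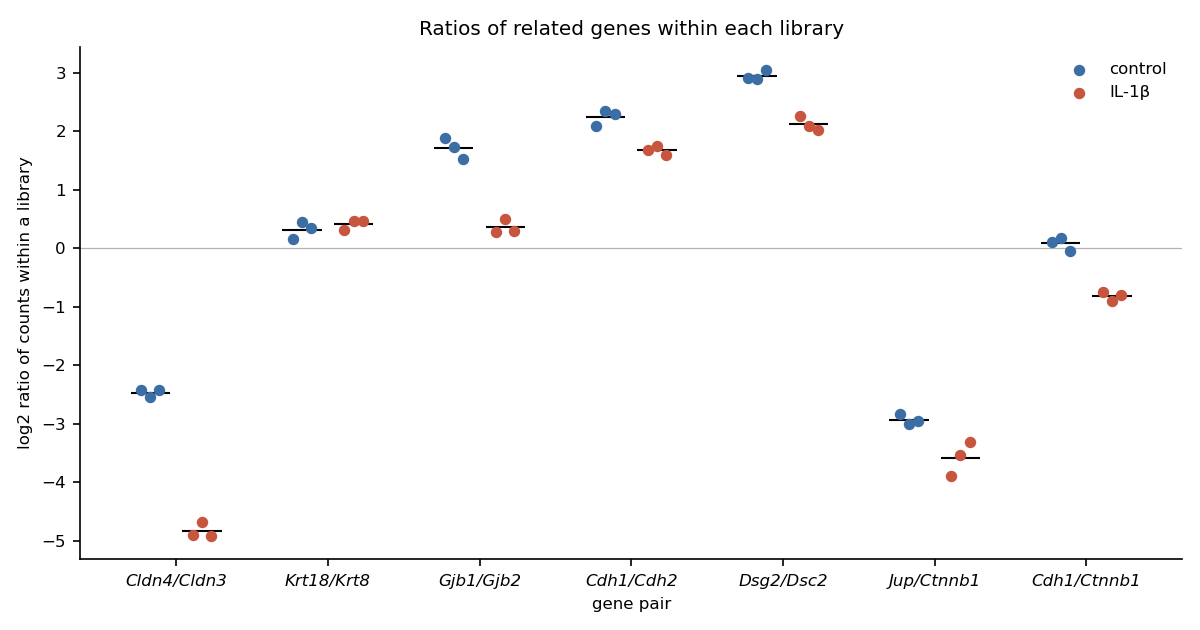
Log2 ratio of the counts of related genes within each library for 7 pairs, with control libraries in blue, IL-1β libraries in red and a line at the mean of each group (n = 3). The control and IL-1β libraries separate in every pair except Krt18 to Krt8, and the widest separation is that of Cldn4 to Cldn3. The pairs were chosen with the changes known, so their separation is not an independent test.

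Genes of the same structures outside the 43 were called in both directions, as were genes in general. Over all tested genes 6.44% were called lower and 6.97% higher, and the counts of each list below are to be read beside these shares. The lists were not tested against them. Of 35 other tight junction genes in the table, 21 were tested, and 3 were lower and 2 higher, with a median log2 fold change of 0.12. Lsr, the lipolysis-stimulated lipoprotein receptor that recruits tricellulin to cell corners, fell by 0.72 on the log2 scale, from 478 ± 12.4 to 291 ± 9.06 CPM (SD, n = 3 each, adjusted p = 3.3e-09). The scaffold Magi3 and the adhesion molecule Esam were also lower, with log2 fold changes of -0.36 and -0.66. Ybx3, a nucleic acid-binding protein that docks at tight junctions, and the polarity kinase gene Prkci rose, by 0.41 and 0.33. Tricellulin and its recruiter Lsr were thus both called lower in the same samples. The call of the tricellulin gene Marveld2 was lost without control replicate 2, IL-1β replicate 1 or IL-1β replicate 3.

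Of 31 other adherens junction and desmosome genes in the table, 15 were tested, with 5 lower, 2 higher and a median of -0.15. Lima1, which bundles actin at the junction, fell by 0.60 (119 ± 14.1 to 78.5 ± 2.04 CPM, SD, n = 3 each, adjusted p = 1.4e-05), and the keratin-binding plakin Ppl by 0.70 (adjusted p = 1.9e-04). Pkp4, Actn4 and Arvcf had log2 fold changes of -0.37, -0.32 and -0.44. Vcl, which encodes vinculin, rose from 95.4 ± 1.28 to 136 ± 8.56 CPM (SD, n = 3 each, log2 fold change 0.51, adjusted p = 2.1e-05), and the nectin Pvrl2 rose by 0.29.

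Of 26 other keratin and plakin genes, 8 were tested, with 2 lower, 2 higher and a median of -0.10, and 14 had a count of 0 in every library. Plec, the cytolinker plectin, and the basal keratin Krt5 rose by 0.35 and 0.87, the latter from 5.15 ± 1.32 to 9.43 ± 1.72 CPM (SD, n = 3 each, adjusted p = 0.016). The nuclear lamina gene Lmna and the linker Dst fell by 0.30 and 0.20. Of 9 other annexins, 6 were tested, and Anxa5 fell by 0.32 (adjusted p = 5.9e-04) with a median of -0.17 over the 6. Of 16 other gap junction genes, 2 were tested and 0 were called, with a median of -0.18.

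Of 26 other duct and progenitor genes, 14 were tested, with 3 higher, 2 lower and a median of -0.29. Ehf and Elf3, epithelial transcription factors of the ETS family, rose from low levels. Ehf had 5, 14 and 16 counts in the controls and 127, 207 and 148 after IL-1β (log2 fold change 3.82, SE 0.305, adjusted p = 6.4e-10). Elf3 had 21, 23 and 22 counts in the controls and 63, 101 and 149 after IL-1β (log2 fold change 2.28, SE 0.295, adjusted p = 2.8e-06). Prom1, a stem and duct cell surface protein, had 1, 4 and 3 counts in the controls and 11, 15 and 20 after IL-1β (adjusted p = 0.0092), so the size of its change rests on few counts. Clu, a secreted chaperone abundant in hepatocytes, fell by 0.53 from 7025 ± 258 CPM (SD, n = 3), and the water channel gene Aqp1 fell by 1.34. Esam, Actn4, Arvcf, Pvrl2 and Prom1, with Clec4g, Kdr and Ptprb above, were named after their values were seen.

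**Figure D5:**
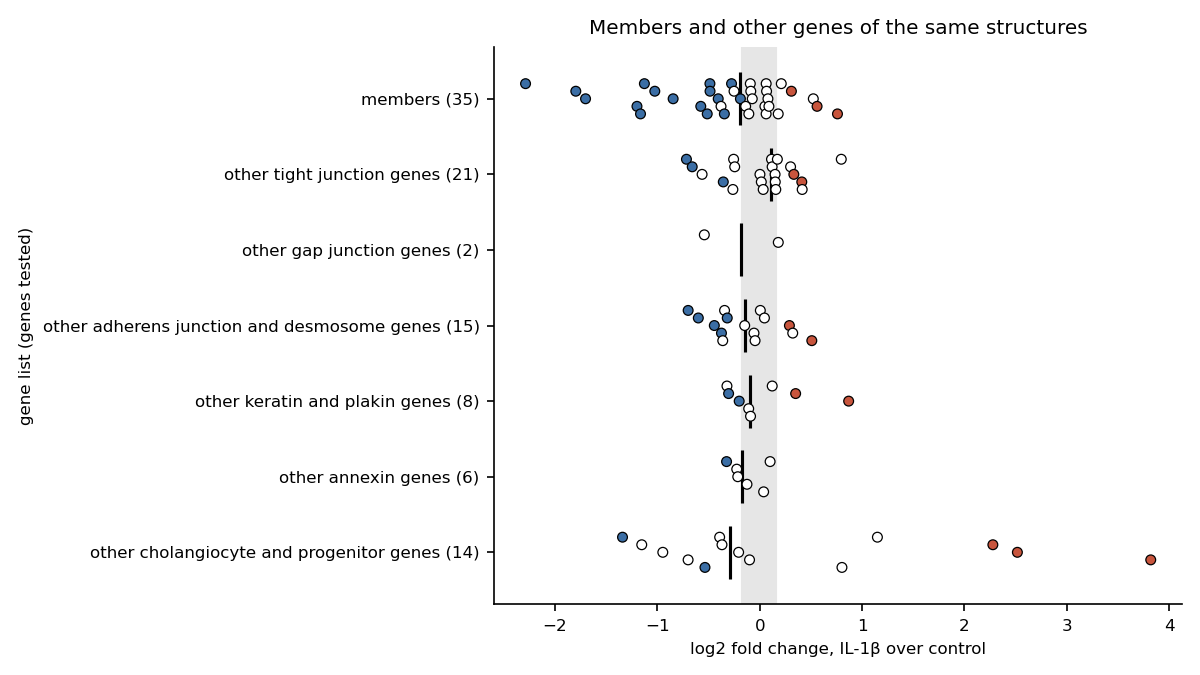
Log2 fold change of each tested gene for the 35 members and 6 lists of other genes of the same structures, with genes called lower in blue, called higher in red and not called in white, a black line at each median, and a grey band from the lower to the upper quartile of all 11657 tested genes. The members reach from -2.29 to 0.76, and Ehf at 3.82 is the highest point.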

How the data were processed

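RNA of 6 samples of primary mouse hepatocytes, 3 control and 3 IL-1β, was sequenced by QuantSeq with single-end reads of 75 nt, and groups were taken from the sample labels. Per the labels, the authors aligned reads with Bowtie2 on mm10 (GRCm38). The counting tool, its strand setting and its treatment of reads with several matches are not given in the sources used here. The deposited raw counts per gene were used without change. The table also holds the authors' log2 normalized values, group averages, fold changes and unadjusted p-values, which were not used.

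Counts were tested with edgeR 4.0.16 in R 4.3.3 (filterByExpr, TMM, quasi-likelihood test of all 6 samples), and p-values were adjusted over 11657 genes. Standard errors were obtained as |log2 fold change| over the root of the F statistic. The fit was tested on simulated data. Exact permutation tests used scipy 1.17.1. Samples that share a replicate number across the groups did not deviate together (correlations of 0.075, 0.027 and -0.005), so they were not paired. Positions of all 43 genes overlapped those of GENCODE M21. Exons of 10 overlap a gene on the opposite strand (among called genes Tjp3, Dsp, Dsg2, Krt8 and Anxa2) and those of 4 a gene on the same strand (among called genes Spp1).

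Alternatives were DESeq2 1.42.0, limma 3.58.1 on log2(CPM + 1), library totals, upper-quartile scaling, testing without a filter or with at least 10 counts per sample, a replicate block and leaving out each sample. Values per sample are given for called genes and for selected duct and junction genes, and from the lists at most 4 called genes with the smallest adjusted p or the 4 most counted markers. The 43 genes, the lists, the motifs and the gene pairs were chosen with earlier results of these data known. Some genes of these lists are not reported here, and the lists' counts, medians and summed levels leave them out.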

Additional observations from a re-analysis of the deposited data

How the results depend on the processing

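Of the 19 calls, Anxa2, Cdh2, Marveld2, Gjb2 and Dsc2 were lost in at least 1 setting, and 4 of them at once without IL-1β replicate 2. All genes called numbered 1563 and were 1131 to 1596 with each sample left out, 1496 with DESeq2, 1594 with limma, 1670 with library totals, 1619 with upper-quartile scaling, 1728 without a filter and 1488 with at least 10 counts in every sample. Among the 43 genes, 15 to 19 were called with a sample left out and 18 to 20 with other tools, scalings or filters. With library totals, 39.6% of all calls were higher, against 52.0% with TMM, and the median of all genes moved from -0.00184 to -0.055. Blocking on the replicate number gave 1671 called genes, among them 21 of the 43, with Cldn1 (adjusted p = 0.047) and Sox9 (0.040) added to the 19. Samples sharing a replicate number did not deviate together, so the main fit did not pair them. Whether such samples came from the same preparation was not tested.

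Changes of direction were confined to genes that were not called. Ctnnb1 was at -0.0035 with library totals, and with each sample left out Ocln ranged from -0.19 to 0.39, Ctnnd1 from -0.016 to 0.14, Cldn12 from -0.16 to 0.025 and Sox4 from -0.11 to 0.0068. The cause of these changes was not tested. Cldn4, Gjb1, Cdh1, Cdh17, Krt8, Krt18, Spp1 and Vim stayed lower and called in all 13 alternatives. The 8 genes with too few counts were tested in the fit without a filter, where 0 were called, 1 (Krt19) had an unadjusted p below 0.05 and the lowest adjusted p was 0.14.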

Other observations

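Genes next to the junctions and filaments, in 5 lists chosen after the results above were known, also changed. Of 23 tested integrin and basement membrane genes, 6 were higher and 4 lower after IL-1β, with a median log2 fold change of -0.07. Cd44, the hyaluronan receptor, rose from 31.2 ± 6.96 to 194 ± 15.99 CPM (SD, n = 3 each, log2 fold change 2.64), and Itga2, Lamb3, Lamc1, Col4a1 and Col4a2 rose by 1.21, 2.69, 0.49, 0.89 and 0.83. The laminin receptor subunits Itga3 and Itga6 fell by 1.15 and 0.74, the fibronectin gene Fn1 by 0.83 and the nidogen gene Nid1 by 0.33. Lamb3 was near the detection limit in the controls, at 0.515 ± 0.504 CPM (SD, n = 3).

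Of 16 tested apical and polarity genes, Slc9a3r1, a scaffold of the canalicular membrane, rose by 0.84, and the canalicular surface proteins Anpep, Ceacam1 and Dpp4 fell by 1.42, 0.89 and 0.82, with a median of -0.07. Of 5 tested genes linked to epithelial-mesenchymal transition, Id2 fell by 0.92 and 0 rose, with a median of 0.01. Snai2, Zeb1, Zeb2 and Tcf4 were not called, with log2 fold changes of -0.17, 0.01, 0.52 and 0.08. Of 7 tested epithelial transcription factors, Ehf and Elf3 rose and 0 fell, with a median of 0.27. Both are in the duct and progenitor list above and were known to rise when this list was chosen. Of 25 tested actin and tubulin cytoskeleton genes, 3 rose and 4 fell, with a median of -0.04 and changes between a decrease of 0.38 for Myh9 and an increase of 0.38 for Actg1. Over all tested genes, 6.97% were called higher and 6.44% lower.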
